A study of Mus musculus with 6 samples.

Results

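The circadian clock genes examined here were Clock, Arntl, Per1, Per2, Per3, Cry1, Cry2, Nr1d1, Nr1d2 and Dbp, 10 of the 21887 protein-coding genes of the mouse annotation. A peak of open chromatin belonged to one of them if its summit lay inside the gene, or if that gene had the nearest coding gene end within 100 kb. By this rule 192 of 192614 peaks, merged into 54 of 68913 regions, were assigned to the 10 genes. The assay was ATAC-seq, whose transposase cuts and tags DNA not packed away in nucleosomes, done in a mouse brown pre-adipocyte line labelled BAT. The day 1 libraries (3) came from cells labelled as 1 day into brown adipocyte differentiation, and the day 0 libraries (3) from the same line labelled WT. All 6 share the line and the cell type label. The series title concerns loss of RUNX1 and RUNX2, but no library used here is labelled with a deletion. The labels name no differentiation agent, no time of day and no synchronisation, and do not say whether replicates were separate cultures.

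The mammalian clock is a feedback loop of transcription. CLOCK and BMAL1, the product of Arntl, bind E-box sequences as a pair and activate the Per and Cry genes, whose proteins return to repress them, as well as Nr1d1, Nr1d2 and Dbp. The REV-ERB proteins made by Nr1d1 and Nr1d2 compete with ROR activators at response elements in Arntl, and DBP activates D-box genes such as those of the Per family; in brown fat the loop is known for its ties to thermogenic and adipogenic genes.

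The day 1 libraries were shallower. They held 4919755, 5603667 and 7302457 fragments and 20069, 23274 and 12556 peaks on the main chromosomes, against 11011889, 8127635 and 9160156 fragments and 55511, 41993 and 39211 peaks at day 0. Day 1 replicate 3 stood apart: its median summit height at the 9136 regions called in all 6 libraries was 1.78 per 1000000 fragments, against 3.66 and 3.93 in the other day 1 libraries and 3.86, 3.94 and 2.62 at day 0. A missing peak at day 1 and a peak too low for the depth cannot be told apart. Most clock gene counts are therefore given for the deposited lists and for equal lists of the 12556 strongest peaks of each library. Counts of other genes are for the deposited lists unless equal lists are named. In bulk chromatin, openness in fewer cells and less openness per cell cannot be told apart either. Gene ends of 9 pre-adipocyte and stromal markers carried a peak for 2, 3 and 1 genes at day 1 and 5, 4 and 4 at day 0 (Pdgfra, Dlk1, Cd34 and Thy1 had none), and those of 7 adipocyte markers for 3, 4 and 4 genes at day 1 and 3, 3 and 2 at day 0 (Ucp1 had none). Of 5 endothelial, 5 immune and 5 muscle markers, each set had gene-end peaks for at most 1 gene in any day 1 library and at most 2 in any day 0 library. The part of other cell types in the results was not tested.

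The clock genes had 23, 27 and 17 peaks at day 1 and 50, 36 and 39 at day 0, or 22.3 ± 5.03 at day 1 and 41.7 ± 7.37 at day 0 (SD, n = 3 each). Every day 1 count lay below every day 0 count, as did the totals of the lists. Per 10000 peaks of a list the order turned: the genes had 11.5, 11.6 and 13.5 at day 1 and 9.01, 8.57 and 9.95 at day 0. With equal lists they had 18, 16 and 17 peaks at day 1 and 13, 14 and 16 at day 0, and the days touched at 16. These counts are a description and were not tested.

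Of the 9 clock genes with any peak, 3 (Arntl, Per1 and Cry1) had fewer peaks in every day 1 library than in any day 0 library. This held for 33.7% of all coding genes with a peak, so 3 of 9 is the background share. None of the 9 had more peaks in every day 1 library, which 0.177% of coding genes did. In equal lists Clock alone separated the days, with 1 peak in each day 1 library and 0 in each day 0 library, an order that 6.53% of coding genes with a peak in those lists shared; none of the 9 had the opposite order, against 6.67%.

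**Figure D1:**
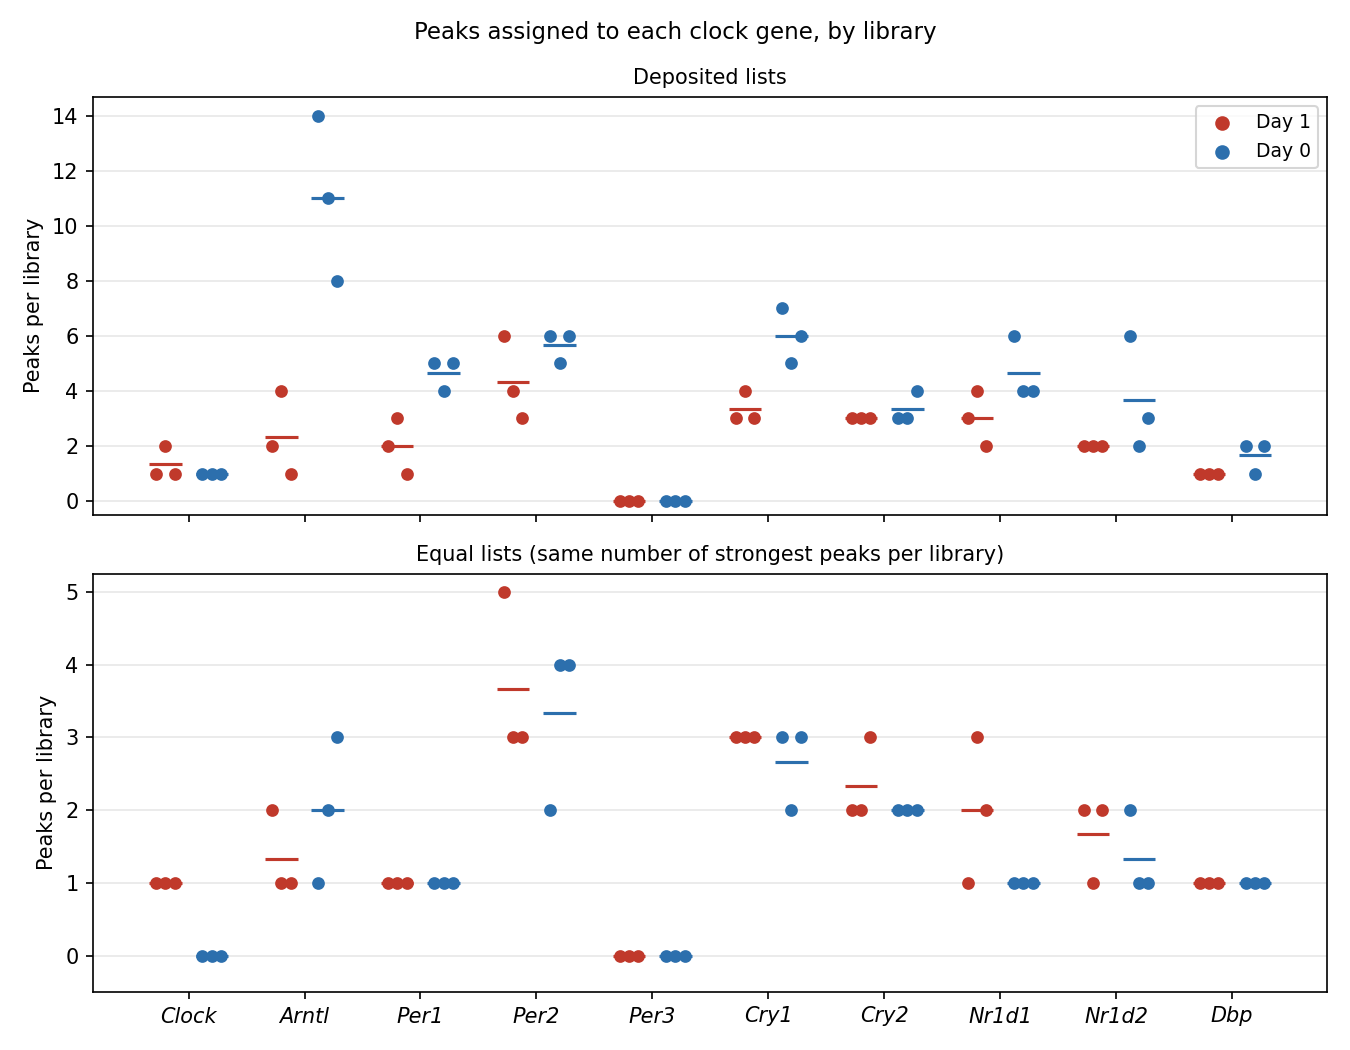
Number of peaks assigned to each clock gene (vertical axis, peaks per library) in the deposited lists (upper panel) and in equal lists of 12556 peaks (lower panel). Points are libraries, red for day 1 and blue for day 0, and bars are means of 3 libraries. Arntl has 2, 4 and 1 peaks at day 1 and 14, 11 and 8 at day 0 in the upper panel and overlapping counts in the lower one, and Per3 has 0 throughout.

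Most of the clock genes had a peak near an end of the annotated gene on both days. For 7 of the 10 genes (Clock, Per1, Per2, Cry1, Cry2, Nr1d2 and Dbp) all 6 libraries had a summit no more than 1 kb from a gene end, against 29.3% of all coding genes; in equal lists this held for 6 of 10 and 19.4%. Nr1d1 had such a summit in every day 0 library and in 2 of 3 day 1 libraries. Arntl and Per3 had none in any library, as did 47.1% of coding genes. The annotated span of Arntl begins upstream of the start sites RefSeq lists for it, so the gene-end rule did not cover them. Over RefSeq promoter windows, from 250 bases before to 50 after a start, Arntl had a peak in all 6 libraries at both of its windows, as did 26.5% of all windows. By windows 6 genes were open in all 3 day 1 libraries and 8 in all 3 day 0 libraries. The genes that differed were Per1, with no day 1 peak at its windows, and Nr1d1. No such share over all coding genes is given here, and the day 1 lists held fewer peaks. The larger day 0 count was not kept in equal lists. There Clock had a window called in all 3 day 1 lists and no day 0 list. Per1 had no call on either day, and Nr1d1 had a call in 1 day 1 list and no day 0 list. The table held 13 windows for 9 of the genes and none for Per2.

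The regions called in every library allow a test of height. The measure was the highest pileup of a library in the region, in fragments, scaled so that every library had the same median over the 9136 regions, and the test was limma on the log2 scale with Benjamini-Hochberg adjustment. Across the genome 706 regions (7.73%) rose and 629 (6.88%) fell at day 1, 14.6% in all; scaled by total fragments instead, 30 rose and 48 fell, and the median difference moved by -0.21 on the log2 scale. Of 16 clock gene regions 1 rose, at Per2, and 1 fell, at Cry2, which is close to the genome-wide share, and 5 had an unadjusted p below 0.05, against 26.6% of all regions. Their median difference was -0.05 against 0.06 over all 9136 regions. None of the 8 at a promoter window or gene end passed, and their differences ran between -0.47 and 0.56 on the log2 scale. Of all 5607 shared regions at gene ends, 259 rose and 97 fell.

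**Figure D2:**
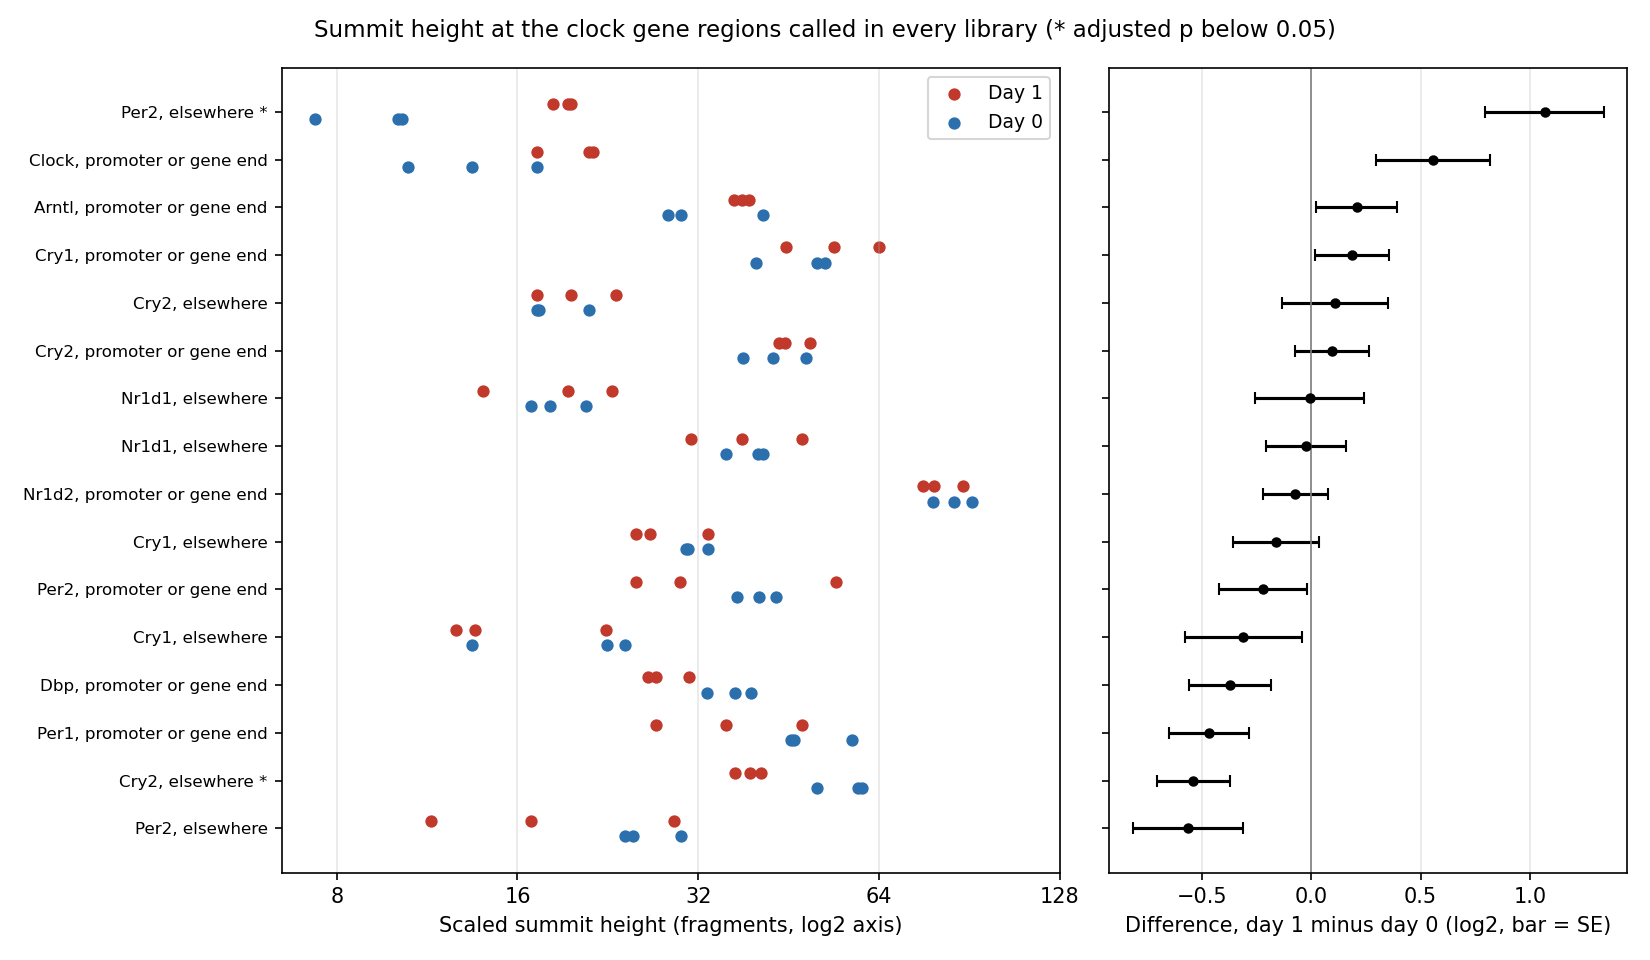
The 16 clock gene regions called in all 6 libraries, ordered by the difference between days. Left, scaled summit height in fragments on a log2 axis, 1 point per library, day 1 in red above day 0 in blue. Right, the difference of day 1 minus day 0 on the log2 scale with its standard error. A star marks the Per2 and Cry2 regions with an adjusted p below 0.05; at both, the 3 day 1 points lie to one side of the 3 day 0 points.

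Clock encodes the activator that pairs with BMAL1. Its region over the promoter, chr5:76304701-76305271 (mm10), had scaled heights of 21.0, 17.2 and 21.4 fragments at day 1 and 17.2, 13.4 and 10.5 at day 0. In 2 of 3 day 1 libraries it was higher than in any day 0 library, and day 1 replicate 2 was level with day 0 replicate 1. The difference was 0.56 ± 0.26 (SE) on the log2 scale with a limma adjusted p of 0.155, short of the threshold. Among the strongest 12556 peaks of each library this peak was present in all 3 day 1 lists and in none of the day 0 lists; 1.84% of coding gene ends had that pattern. In equal lists of 20069 peaks made without day 1 replicate 3, an alternative chosen after seeing the data, the region was no longer called at day 1 alone. The raw heights behind it were low, at 15, 15 and 11 fragments at day 1 and 29, 17 and 10 at day 0. Clock had 1 other region, called in 1 library.

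Arntl encodes BMAL1, the partner without which CLOCK does not drive the loop. Its promoter region, chr7:113206906-113207570, had scaled heights of 37.9, 36.7 and 38.8 fragments at day 1 and 28.5, 30.0 and 41.0 at day 0. The day 1 libraries lay within the day 0 range. The difference was 0.21 ± 0.19 (SE), with a limma adjusted p of 0.521. The second RefSeq promoter window of Arntl, inside this region, is shown because it carries an element of the kind through which REV-ERB and ROR proteins act (GRCm38.p6, plus strand, chr7:113207261-113207560, sequence from RefSeq, matched element in capitals):
Arntl promoter: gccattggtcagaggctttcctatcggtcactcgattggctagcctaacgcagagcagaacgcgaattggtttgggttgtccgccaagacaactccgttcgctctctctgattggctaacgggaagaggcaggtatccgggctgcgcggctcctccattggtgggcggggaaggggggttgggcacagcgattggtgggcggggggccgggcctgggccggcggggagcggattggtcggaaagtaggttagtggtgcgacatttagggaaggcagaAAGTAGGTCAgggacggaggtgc
The letters searched for this element were TAGGTCA preceded by AAN, on either strand, and only exact matches are in capitals. It occurs in 33 of 21263 coding promoter windows, 0.155%, and in 1 of the 13 clock gene windows. It starts 27 bases after the transcription start, at chr7:113207538-113207547, between 144 and 192 bp from the summits of the day 1 libraries and between 176 and 342 bp from those of day 0.

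Away from its promoter, Arntl held 4 of the 8 clock gene regions called in all 3 day 0 libraries and in no day 1 library. Of all 54 clock gene regions these 8 are 14.8%, against 17.5% of all regions. No clock gene region was called in every day 1 library and in no day 0 library, against 0.607% of all regions, and 16 were called in all 6 libraries, 29.6% against 13.3%. The strongest of the Arntl regions, chr7:113151507-113151913, lies 26.7 kb before the annotated span. It had no call at day 1 and pileups of 28, 23 and 24 fragments at day 0, with a fold enrichment over local background of 6.91, 6.69 and 9.67. At the day 0 level, given the lower signal of the day 1 libraries, a peak there would have had 14.3, 17.4 and 10.3 fragments in the day 1 libraries, and 63.6%, 68.9% and 41.5% of the peaks in those lists were at or below that height. That height lies within the range of the day 1 lists; whether the region closed was not tested.

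The neighbouring region chr7:113147740-113148256 had 4 fragments in day 1 replicate 2 and no call in the other day 1 libraries, against 30, 38 and 21 fragments at day 0. At the day 0 level it would have had 16.6, 20.3 and 12 fragments at day 1. The other Arntl regions called only at day 0 were lower. The one at chr7:113139931-113140495 had 12, 9 and 8 fragments at day 0, that at chr7:113185971-113186602, inside the gene, 11, 17 and 14, and that at chr7:113196276-113196517 10, 9 and 5. The day 0 level carried over would have put these at 3.14 to 10.1 fragments in the day 1 libraries, and for the first and the last of them no more than 15.1% of the peaks in a day 1 list were that low. In equal lists no clock gene region was called only at day 0, against 9.15% of regions. In the equal lists of 20069 peaks without day 1 replicate 3, both strong Arntl regions (113147740 and 113151507) were called in all 3 day 0 lists and neither day 1 list. They made 2 of 35 clock gene regions, 5.71% against 10.8% of all regions.

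**Figure D3:**
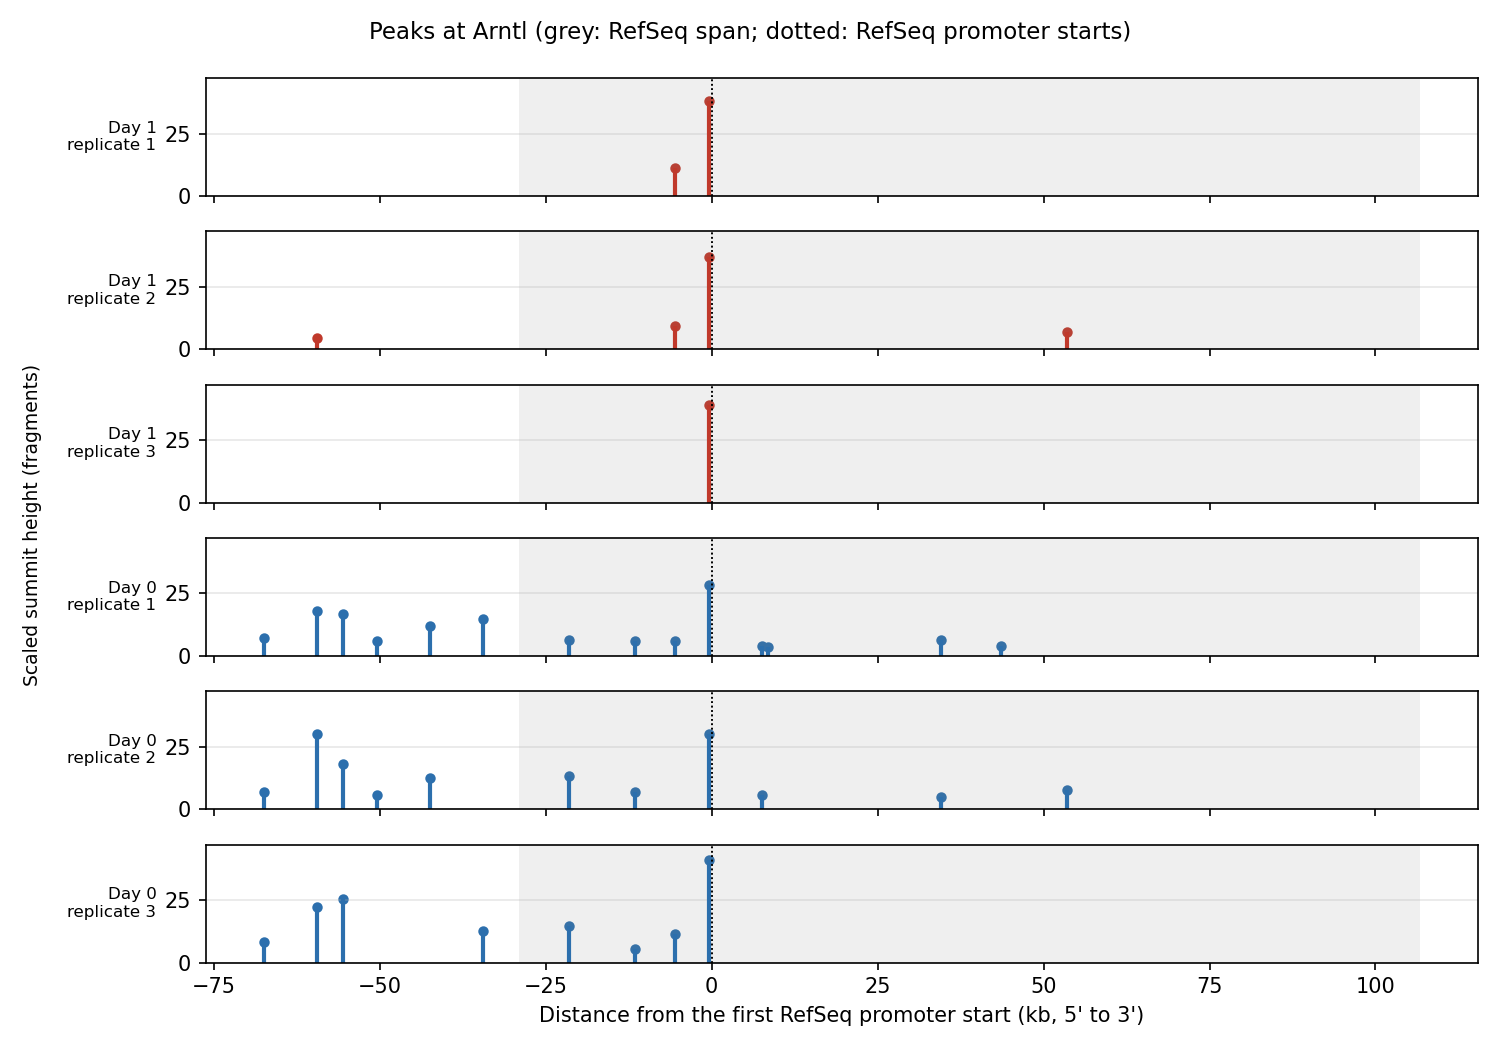
Peaks at Arntl in each library, day 1 in red in the upper 3 panels and day 0 in blue in the lower 3. The horizontal axis is distance in kb from the first RefSeq promoter start and the vertical axis scaled summit height in fragments; a stem is a called peak, grey the annotated span and dotted lines the promoter starts. The promoter peak stands in every panel, and the cluster of stems 55.7 to 59.5 kb upstream stands in the 3 day 0 panels, with 1 low stem at day 1.

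Per1 encodes a repressor of CLOCK and BMAL1 and is a Per gene that responds quickly to hormones and other acute signals. Its 2 RefSeq promoter windows differed between the days in the deposited lists, with a peak in 0 of 3 day 1 libraries and in 3 of 3 day 0 libraries; 2.13% of coding promoter windows had that pattern. Both windows are shown because the day 0 calls lie on them and the first carries a canonical E-box and a D-box (GRCm38.p6, plus strand, chr11:69098699-69098998 and chr11:69099902-69100201, sequences from RefSeq, motifs in capitals, the E-box first):
Per1 promoter 1: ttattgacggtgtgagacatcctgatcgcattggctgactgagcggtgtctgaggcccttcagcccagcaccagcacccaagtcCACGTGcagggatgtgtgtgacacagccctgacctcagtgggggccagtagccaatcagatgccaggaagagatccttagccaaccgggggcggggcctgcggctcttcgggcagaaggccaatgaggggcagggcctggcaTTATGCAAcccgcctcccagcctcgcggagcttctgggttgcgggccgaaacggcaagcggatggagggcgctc
Per1 promoter 2: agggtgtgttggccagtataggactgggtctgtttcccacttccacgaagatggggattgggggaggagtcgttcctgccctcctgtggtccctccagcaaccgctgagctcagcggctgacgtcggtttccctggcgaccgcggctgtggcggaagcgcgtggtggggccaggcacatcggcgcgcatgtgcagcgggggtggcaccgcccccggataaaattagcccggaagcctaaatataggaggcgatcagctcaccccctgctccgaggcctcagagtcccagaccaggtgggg
The E-box letters were CACGTG, which read the same on both strands, and the D-box letters TTATGNAA on either strand. The E-box occurs in 7.84% and the D-box in 3.09% of 21263 coding windows, and each in 2 of the 13 clock gene windows; the E-box of Per1 lies 70, 42 and 24 bp from the summits of the 3 day 0 libraries.

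The peak on the first window, chr11:69098745-69098989, had no call at day 1 and pileups of 30, 38 and 25 fragments at day 0, with fold enrichments of 3.19, 4.97 and 4.76. The peak on the second, chr11:69099917-69100121, had no call at day 1 and 33, 26 and 16 fragments at day 0, with fold enrichments of 4.08, 3.93 and 3.57. Both were weak beside the median fold enrichment of those lists, which was 7.33, 7.50 and 7.17. At the day 0 level the first would have had 17.6, 21.5 and 12.7 fragments at day 1, where 73.5%, 77.9% and 55.8% of peaks were no higher, and the second 13.5, 16.5 and 9.77 fragments. Those heights lie within the range of the day 1 lists. A call also depends on local background, so height alone cannot show that these peaks would have been called. Whether the windows closed was not tested. In equal lists neither window had a peak in any library, as had 62.3% of windows. Another region in the gene, chr11:69096853-69097532, had 14 fragments in day 1 replicate 2 alone and 32, 34 and 23 at day 0. Within 1 kb of the annotated end of the gene, chr11:69110400-69110964 was called in 2 of 3 libraries of each day. It had 8 and 8 fragments at day 1 and 9 and 8 at day 0. Among 14255 regions called in at least 2 of 3 libraries of each day its difference was 0.60 ± 0.36 (SE), limma adjusted p 0.280.

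The strongest Per1 peak lay at the annotated start of the gene, chr11:69094749-69095295, 3.85 kb upstream of the first promoter start. It was called in all 6 libraries, also in equal lists. Scaled heights were 47.7, 35.6 and 27.2 fragments at day 1 and 57.6, 45.8 and 46.3 at day 0; day 1 replicate 1 lay inside the day 0 range and the other 2 below it. The difference was -0.47 ± 0.18 (SE) on the log2 scale with a limma adjusted p of 0.0797, short of the threshold. Without day 1 replicate 1 it was -0.67 with an adjusted p of 0.0114, and without day 1 replicate 3 it was -0.16 with 0.585. With fold enrichment as the value tested it was -0.05 with an adjusted p of 0.927. Among 5600 other gene-end regions, the scaled heights most like it over the 6 libraries were those of Ep300 (Pearson r = 0.987), Zbed5 (0.984), Etv4 (0.977) and Ccsap (0.976), given as a description of libraries that share their depth.

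**Figure D4:**
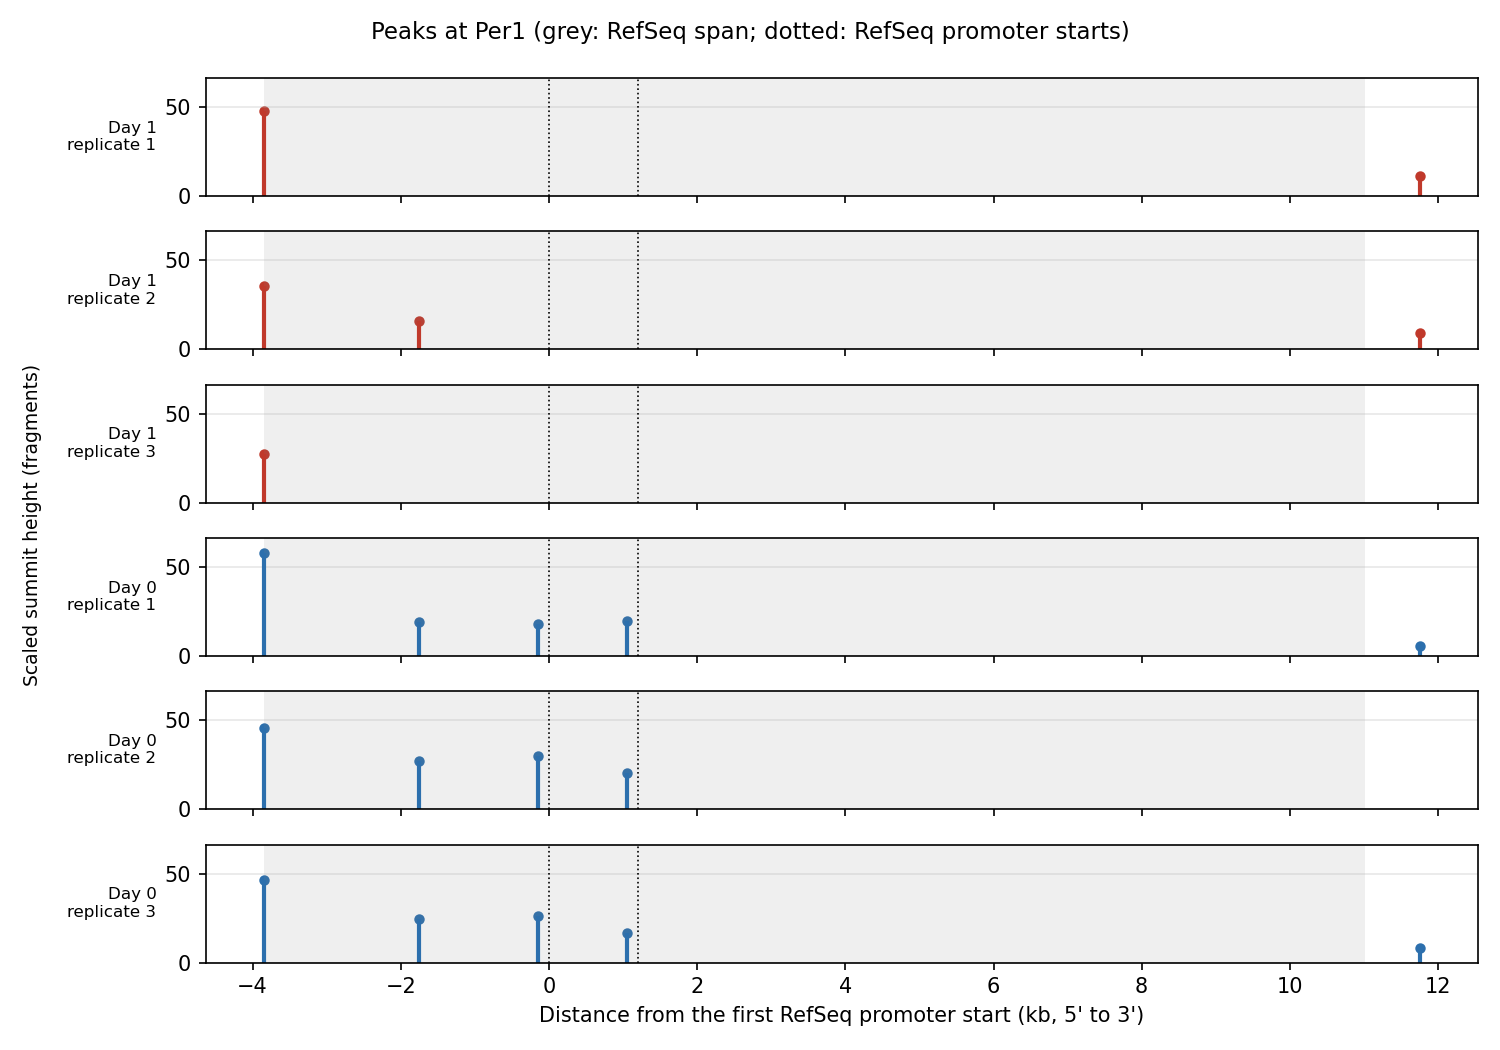
Peaks at Per1 in each library, day 1 in red in the upper 3 panels and day 0 in blue in the lower 3, by distance in kb from the first RefSeq promoter start (horizontal) and scaled summit height in fragments (vertical). Grey marks the annotated span and dotted lines the promoter starts. The tall peak 3.85 kb upstream stands in all 6 panels, and the stems at the dotted lines stand in the 3 day 0 panels alone.

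Per2 encodes a second Per repressor, which in mouse is also known to bind PPARγ and restrain fat cell genes. It held the clock gene region that rose: chr1:91436398-91436867, inside the gene and 20.5 kb from its nearest end. Scaled heights were 19.6, 18.4 and 19.4 fragments at day 1 and 10.1, 10.3 and 7.36 at day 0. All 3 day 1 libraries were above all 3 day 0 libraries. It was 2.09-fold higher at day 1, a difference of 1.07 ± 0.27 (SE) on the log2 scale with a limma adjusted p of 0.00395, and it passed with each library left out in turn. In equal lists it was called in all 3 day 1 lists and no day 0 list; with Clock it made 2 of 24 clock gene regions of that kind, 8.33% against 5.74% of all regions. Without day 1 replicate 3, in equal lists of 20069 peaks, this Per2 region and Cry2 92423763 were the regions of that kind, 2 of 35 or 5.71% against 8.54%.

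That call had limits in how height was measured. The raw pileups were 14, 16 and 10 fragments at day 1 and 17, 13 and 7 at day 0, so the days overlap before scaling, and the scaling sets the size of the difference. Scaled by total fragments, the difference was 0.85 with an adjusted p of 0.661. Fold enrichment over local background was 6.72, 6.58 and 5.31 at day 1 and 7.28, 7.09 and 4.09 at day 0, where the days overlap, and as the value tested it gave 0.46 with an adjusted p of 0.205.

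The remaining Per2 regions did not pass the test. At the gene end, chr1:91459204-91459695, scaled heights were 25.3, 29.8 and 54.4 fragments at day 1 and 40.4, 37.1 and 43.1 at day 0. Day 1 replicate 3 was the highest of the 6 libraries and the other 2 day 1 libraries were the lowest; the limma difference was -0.22 ± 0.20 (SE), adjusted p 0.535. Inside the gene, at chr1:91446080-91446651, the same 2 day 1 libraries were the lowest, while day 1 replicate 3 lay within the day 0 range. The region had scaled heights of 16.8, 11.5 and 29.1 fragments at day 1 and 25.0, 30.0 and 24.2 at day 0. Its difference was -0.56 ± 0.25 (SE), adjusted p 0.137, and without day 1 replicate 3 it was -0.81 with an adjusted p of 0.0161, while without day 1 replicate 2 it was -0.25 with 0.577. The region chr1:91458121-91458745 was called in 2 of 3 day 1 libraries, at 17 and 24 fragments, and in all day 0 libraries, at 41, 46 and 32. The other 3 regions of Per2 were called in fewer libraries.

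**Figure D5:**
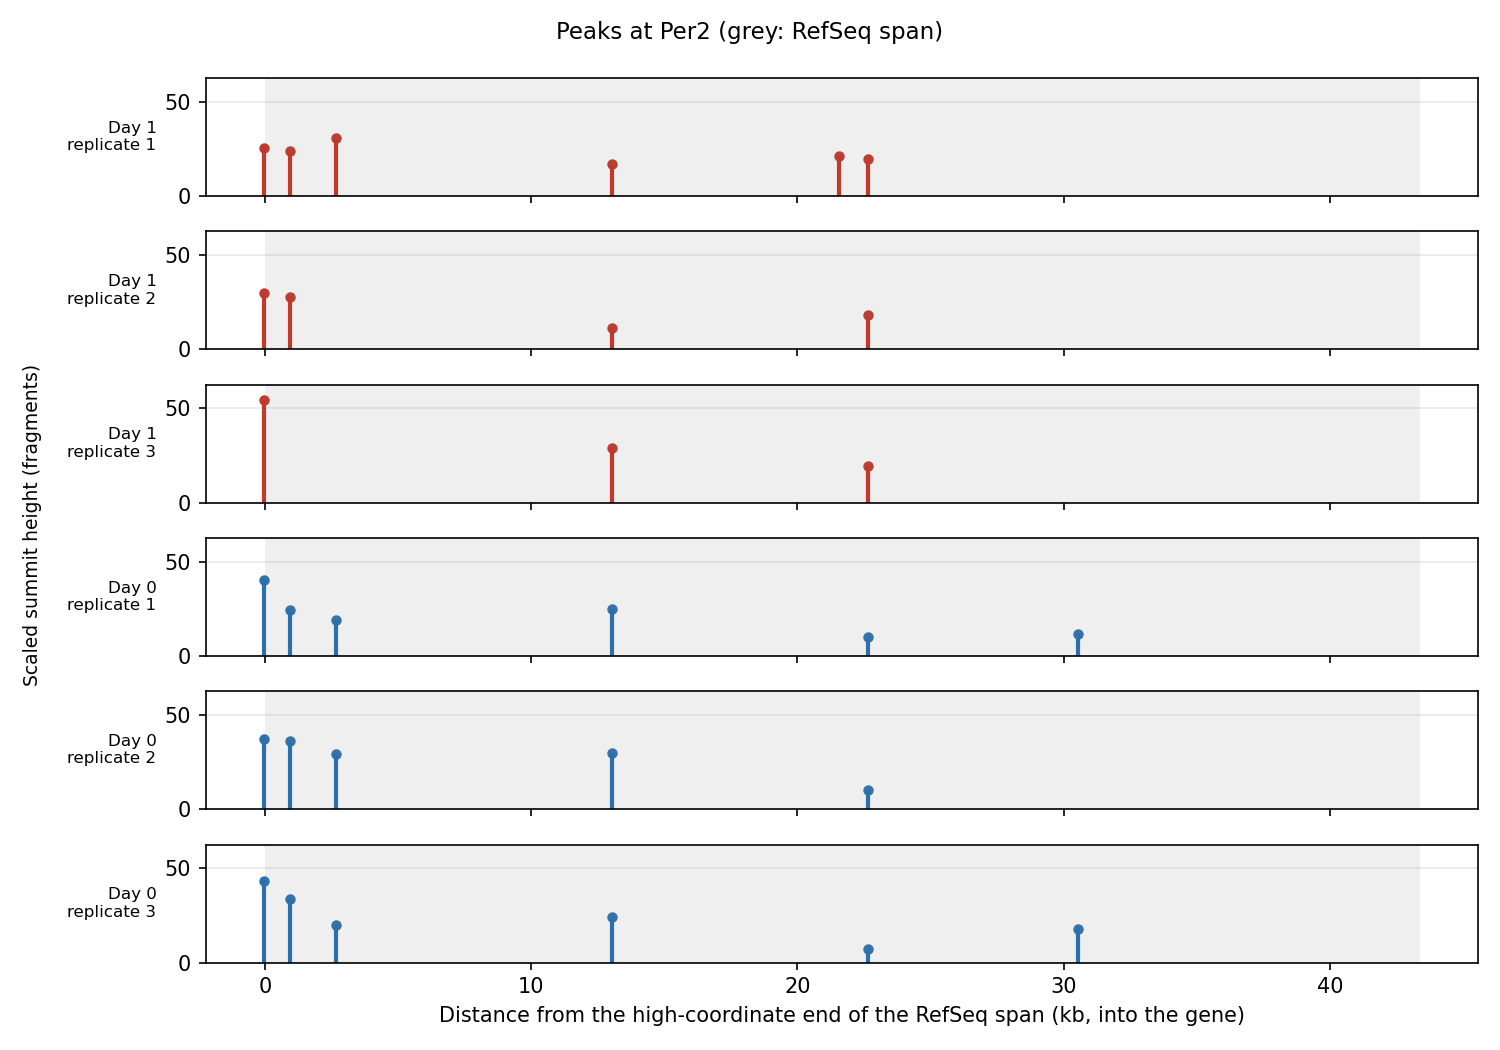
Peaks at Per2 in each library, day 1 in red in the upper 3 panels and day 0 in blue in the lower 3, by distance in kb from the high-coordinate end of the annotated span into the gene (horizontal) and scaled summit height in fragments (vertical). Grey marks the span. Stems stand near the end of the gene and deeper inside it, and the stem of the region that passed the test is higher in the day 1 panels, at 18.4 to 19.6 fragments, than in the day 0 panels, at 7.36 to 10.3.

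Per3, the Per gene that the core loop can run without, had no peak by the rule in any of the 6 deposited lists, as had 27.8% of coding genes. Its RefSeq promoter window had no peak in any library either, as had 51.6% of windows. The window is shown because it holds the D-box letters at 2 places while no peak lies on it (GRCm38.p6, minus strand, chr4:151044616-151044915, sequence from RefSeq written 5′ to 3′, D-boxes in capitals):
Per3 promoter: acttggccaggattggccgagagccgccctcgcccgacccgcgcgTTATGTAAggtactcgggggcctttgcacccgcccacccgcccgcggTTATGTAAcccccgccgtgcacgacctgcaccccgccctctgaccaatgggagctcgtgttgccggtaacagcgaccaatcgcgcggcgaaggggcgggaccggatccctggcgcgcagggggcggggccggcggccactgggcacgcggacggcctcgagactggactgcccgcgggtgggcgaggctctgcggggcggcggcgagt
It is the only clock gene window with 2 D-box matches. A region not called at these depths may still be open in some cells.

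Cry1 encodes the stronger repressor of CLOCK and BMAL1 in the loop. Its promoter region, chr10:85184891-85185601, had scaled heights of 44.9, 53.9 and 64.1 fragments at day 1 and 50.5, 52.1 and 40.0 at day 0. The days overlap, and the difference was 0.19 ± 0.17 (SE) with a limma adjusted p of 0.524; its sign turned, to -0.026, when heights were scaled by total fragments. Its window is shown because it holds both E-box forms searched (GRCm38.p6, minus strand, chr10:85185005-85185304, sequence from RefSeq written 5′ to 3′, CACGTT read on the other strand as AACGTG first, then CACGTG, in capitals):
Cry1 promoter: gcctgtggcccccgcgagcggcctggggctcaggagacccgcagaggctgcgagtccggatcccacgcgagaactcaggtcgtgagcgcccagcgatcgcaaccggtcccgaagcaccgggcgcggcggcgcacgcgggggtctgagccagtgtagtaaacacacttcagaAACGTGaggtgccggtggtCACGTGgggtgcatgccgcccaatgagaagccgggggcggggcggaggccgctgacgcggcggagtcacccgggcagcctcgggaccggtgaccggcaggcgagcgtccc
The CACGTT form, called the E-prime box, occurs in 4.68% of coding windows and in 3 of the 13 clock gene windows, those of Cry1, Cry2 and Nr1d1. The E-box of Cry1 lay 2, 208 and 216 bp from the summits at day 1 and 218, 204 and 40 bp from those at day 0, so the summits were spread over the region on both days.

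Near the Cry1 promoter, chr10:85183610-85184000 had 26.7, 33.3 and 25.2 fragments on the scaled measure at day 1 and 33.3, 30.8 and 30.5 at day 0, a difference of -0.16 (limma adjusted p 0.666). Inside the gene, chr10:85161700-85162177 had 22.4, 12.6 and 13.6 fragments at day 1 and 22.6, 13.4 and 24.2 at day 0, a difference of -0.31 (limma adjusted p 0.502). At both regions the days overlap. A region called only at day 0, chr10:85211653-85211984, lies 26.7 kb beyond the gene and was low, with 19, 7 and 6 fragments.

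Cry2, the other cryptochrome repressor, held the clock gene region that fell. It is chr2:92424875-92425545, inside the gene and 8.93 kb from the gene's end at the promoter. Scaled heights were 40.7, 39.0 and 36.9 fragments at day 1 and 50.5, 59.2 and 60.0 at day 0. All 3 day 1 libraries were below all 3 day 0 libraries, and the height at day 1 was 0.689 of that at day 0. The difference was -0.54 ± 0.16 (SE) on the log2 scale with a limma adjusted p of 0.0194. Fold enrichment over local background was 8.71, 9.74 and 6.72 at day 1 and 12.2, 12.7 and 13.2 at day 0, before any scaling. Its mean was lower at day 1 in 14 of the 16 shared clock gene regions, and the share over all regions is not given here. The median fold enrichment of whole lists was lower at day 1, at 6.91, 6.79 and 6.63 against 7.33, 7.50 and 7.17 at day 0.

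The Cry2 call rested on several libraries. Without day 1 replicate 3 the difference was -0.40 with an adjusted p of 0.103, without day 0 replicate 2 it was -0.51 with 0.0866, and without day 0 replicate 3 -0.50 with 0.0883. It also missed the threshold scaled by total fragments, at -0.75 with an adjusted p of 0.961, and with fold enrichment scaled and tested, at -0.21 with 0.524. The promoter region of Cry2, chr2:92433660-92434571, had scaled heights of 49.1, 43.6 and 44.7 fragments at day 1 and 38.0, 42.6 and 48.4 at day 0, which overlap, and a difference of 0.10 ± 0.17 (SE), adjusted p 0.779, or -0.12 scaled by total fragments. The other shared region, chr2:92423763-92424028, differed by 0.11 (adjusted p 0.834), or by -0.10 scaled by total fragments.

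Nr1d1 encodes REV-ERBα, a haem-binding nuclear receptor that represses Arntl and that in mouse has been linked to brown fat formation and thermogenesis. Its promoter region, chr11:98775089-98776023, was called at 14 and 24 fragments in 2 of 3 day 1 libraries, not in day 1 replicate 3, and at 42, 31 and 26 fragments in the day 0 libraries. With 1 library uncalled it was not among the 9136 regions; among 14255 regions called in at least 2 of 3 libraries of each day its difference was -0.14 ± 0.24 (SE), limma adjusted p 0.762. A region just inside the gene, chr11:98773722-98774214, had scaled heights of 47.7, 37.9 and 31.1 fragments at day 1 and 35.6, 40.2 and 41.0 at day 0. The highest and the lowest library were both from day 1, and the difference was -0.02 ± 0.18 (SE), limma adjusted p 0.960. The region chr11:98783343-98783695 differed by -0.01 ± 0.25 (SE), adjusted p 0.991. At both regions the sign changed under other settings. A further gene-end region, chr11:98767304-98767553, was called in day 0 replicate 1 alone, at 8 fragments.

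Nr1d2 encodes REV-ERBβ, the second such receptor. Its promoter region, chr14:18238234-18239579, was the tallest clock gene peak in every library, with scaled heights of 88.4, 79.2 and 75.7 fragments at day 1 and 91.5, 78.9 and 85.2 at day 0. The days overlap closely, and the difference was -0.07 ± 0.15 (SE), limma adjusted p 0.815. Inside the gene, chr14:18234071-18234414, 4.94 kb from the promoter, had no call at day 1 and 29, 29 and 17 fragments at day 0, with fold enrichments of 4.19, 4.94 and 5.07. At the day 0 level it would have had 13.8, 16.8 and 9.95 fragments at day 1, where 59.4%, 66.1% and 33.6% of peaks were no higher. A call also depends on local background, and whether the region closed was not tested.

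Dbp encodes a PAR bZIP transcription factor that carries clock timing to output genes. Its gene is short, and 1 region at its start, chr7:45704087-45705310, was called in all 6 libraries; that region also reaches the end of the neighbouring gene Car11. Scaled heights were 30.9, 26.4 and 27.2 fragments at day 1 and 39.2, 33.1 and 36.8 at day 0. All 3 day 1 libraries were below all 3 day 0 libraries. The difference was -0.37 ± 0.19 (SE) on the log2 scale, and with a limma adjusted p of 0.201 it did not pass. With fold enrichment as the value tested it was -0.028 with an adjusted p of 0.96. A second gene-end region, chr7:45705658-45706130, was called in no day 1 library and in 2 of 3 day 0 libraries, at 26 and 18 fragments.

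A wider list held 25 other genes of the clock and its close targets, chosen like the 10 above with earlier results of these data known. Fewer peaks in every day 1 library than in any day 0 library were found for 11 of the 25, against 33.7% of coding genes with a peak, and more for 0, against 0.177%. A summit within 1 kb of a gene end was present in all 6 libraries for 14, against 29.3% of coding genes. It was present in the day 0 libraries alone for Arntl2 and Csnk1e, against 2.33% of coding genes. Arntl2 is a paralogue of Arntl, and Csnk1e encodes a kinase that marks PER proteins for degradation. In equal lists the first pattern held for 11, against 19.4%, and the second for 0. There Arntl2 was called in 1 day 0 list and Csnk1e in no list. Within 2.5 kb of a gene end, Arntl2 was called in all 3 deposited lists of each day. Of the 147 regions of the 25 genes, 29 were called in all day 0 and no day 1 libraries, 19.7% against 17.5% of all regions. In all day 1 and no day 0 libraries 2 were called, against 0.607%. Those 2 lay 35.3 kb from Nfil3, a repressor at D-boxes, at chr13:53018098-53018310 with 11, 10 and 12 fragments at day 1, and 14.5 kb from Noct, a rhythmic phosphatase, at chr3:51209845-51210104 with 5, 8 and 5.

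Of the 25 regions of these genes called in every library, 3 rose at day 1 and 0 fell by limma, against 7.73% and 6.88% of all regions. An unadjusted p below 0.05 was found for 7, or 28.0%, close to the 26.6% of all regions. The region at the end of Wee1, a cell cycle kinase under clock control, chr7:110121403-110122248, had 39, 59 and 32 fragments at day 1 and 57, 55 and 44 at day 0 before scaling, and a difference of 0.59 ± 0.17 (SE), adjusted p 0.0108. The region at the end of Noct, chr3:51224394-51224976, had 21, 22 and 12 fragments at day 1 and 29, 23 and 13 at day 0, and a difference of 0.67 ± 0.23 (SE), adjusted p 0.0437. A region 24.7 kb from Nampt, the NAD-salvage enzyme, chr12:32878004-32878518, had 11, 9 and 16 fragments at day 1 and 13, 10 and 12 at day 0, and a difference of 0.90 ± 0.31 (SE), adjusted p 0.0406. In raw fragments the days overlap at all 3 regions.

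None of these 3 calls held in every setting. With heights scaled by total fragments none passed, with limma adjusted p of 1.00 for Wee1 and Noct and 0.940 for Nampt. Wee1 missed the threshold without day 1 replicate 2 (adjusted p 0.0626) or day 0 replicate 1 (0.127). Nampt missed it without day 1 replicate 3 (0.196), day 0 replicate 1 (0.150) or day 0 replicate 2 (0.155). Noct passed only with day 1 replicate 3 left out (0.0115) among the 6 libraries, the other 5 giving 0.0704 to 0.193. With fold enrichment as the value tested, Noct passed (limma adjusted p 0.00313), while Wee1 (0.125) and Nampt (0.212) did not. Scaled by quantiles, Wee1 passed (0.0188), while Noct (0.0644) and Nampt (0.102) did not.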

How the data were processed

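The deposited files were 6 peak lists, 1 per library, called by the authors with MACS2 2.2.7.1 on paired-end fragments without a control, at a q-value cutoff of 0.05, with a local background of 10000 bp, per the file headers. Each list gives, per the file headers, the pileup signal at the summit in unscaled fragments, its −log10 p-value and −log10 q-value, the fold enrichment over local background (a ratio) and the peak length. The submitters' processing notes also name HOMER 4.11, DiffBind 3.8.4, deepTools 3.5.1, SAMtools 1.15.1, Bowtie2 2.4.4, Trim Galore 0.6.7 and the mm10 build; the labels name the TruePrep kit.

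Peaks that shared 1 bp or more were joined into regions. Genes, starts and promoter sequences came from RefSeq GRCm38.p6 and matched all 10 genes for position and 9 for a promoter window. For regions called in all 6 libraries, log2 summit pileup, each library scaled to a common median, was tested by day with limma 3.58.1 (R 4.3.3, moderated with a trend), with Benjamini-Hochberg adjustment over 9136 regions at 0.05. A height exists only where a library called a peak, so the test leaves out regions lost from any list. The p-values reflect only how these libraries vary among themselves, and that variation may be technical. On simulated data of 9136 regions with 2-fold changes in 200 and counting noise plus a log2 SD of 0.2, the test recovered 41% of the higher and 15% of the lower ones, with 2 false calls among 58. Every simulated region was kept whatever its height, so these rates do not cover the loss of calls in the real lists.

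The members and lists were chosen with earlier results of these data known. All 10 members are named, each with its gene-end regions, the regions called in 1 day alone and the strongest others, and other clock genes where they passed the test or had a region called at day 1 alone. Alternatives were equal lists, scaling by total fragments or by quantiles, fold enrichment in place of height, stricter and looser calls, other distances, a replicate block and leaving out each library.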

Additional observations from a re-analysis of the deposited data

How the results depend on the processing

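Depth and calling limit these results: no height exists where a library has no call, and the lowest called heights were 4 or 5 fragments. The main test gave 706 regions higher and 629 lower at day 1. It gave 30 and 48 with heights scaled by total fragments, 1167 and 1457 with calls in at least 2 of 3 libraries a day, 464 and 390 at a −log10 q of at least 5, and 365 and 310 with fold enrichment. Leaving out each library gave 497 to 1132 higher and 427 to 1141 lower, the highest of both without day 1 replicate 3, when more regions qualify. In equal lists the mean number of clock gene peaks was 17 for day 1 libraries and 14.3 for day 0 libraries, and at the stricter q it was 16.3 for day 1 and 34.7 for day 0. Clock gene regions called only at day 1 numbered 0, or 2 in equal lists (Clock and Per2) and 2 in those without day 1 replicate 3 (Cry2 and Per2). Those called only at day 0 numbered 8, or 0 in equal lists, 2 in equal lists without day 1 replicate 3, 16 with 2 of 3 libraries, and 8 to 12 with a library left out. With 2 of 3 libraries the share was 29.6%, against 30.8% of all regions. With a library left out the shares were 14.8% to 23.1%, against 18% to 25.9%. Clock gene regions called in all libraries numbered 16, or 10 in equal lists (41.7% against 22.9%) and 9 at the stricter q (20% against 13.4%). At the stricter q, 7 clock gene regions, among them Per2 91436398, had no test.

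Small differences changed sign, and the cause was not tested. Scaled by total fragments they were -0.0052 at the Arntl promoter, -0.026 at the Cry1 promoter, -0.10 at Cry2 92423763 and -0.12 at the Cry2 promoter. With fold enrichment they were 0.26 at Nr1d1 98773722, 0.18 at Nr1d1 98783343 and 0.16 at Nr1d2. With a library left out the ranges were -0.29 to 0.023 at Cry1 85183610, -0.18 to 0.23 and -0.17 to 0.19 at the 2 Nr1d1 regions, -0.13 to 0.080 at Nr1d2 and -0.44 to 0.0066 at the Per2 gene end.

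Same-numbered libraries did not deviate together (r = -0.036, 0.054 and 0.0081 over 9136 regions), and not every library correlated best with its own number. With the replicate number as a block 729 regions were higher and 633 lower, and the Per2 and Cry2 regions kept their calls (limma adjusted p 0.00252 and 0.0205); no call at a clock gene region changed.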
